A study of Mus musculus with 11 samples.

Results

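The genes described here encode cytokines of the interleukin-6 (IL-6) family, their receptors and the inhibitor that ends their signal: Il6, Il11, Lif, Il6ra, Il6st, Osmr, Lifr and Socs3. Accessible chromatin regions were assigned to a gene when they overlapped an interval from 50 kb upstream of the gene to 20 kb past its end in the GENCODE mouse annotation (mm10). This gave 106 of 94963 regions in the deposited list, or 0.112%, and no region was counted for 2 of the genes. All 8 genes had at least 1 region within 1000 bp of one of their annotated transcript starts, which is termed a promoter region below.

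ATACseq, in which the Tn5 transposase places sequencing adapters into open chromatin, was performed on MPC2 cells, a mesenchymal progenitor line of the mouse that is conditionally immortalised and derives from 1 clone. The 11 samples comprised undifferentiated MSCs and osteocytes obtained by 3 weeks of osteogenic culture. MSCs received vehicle (DMSO, 3 samples) or 50 uM FG-4592 (3 samples), and osteocytes received vehicle (2 samples) or 50 uM FG-4592 (3 samples), in each case for 48 hours. FG-4592 (Roxadustat) is an inhibitor of the HIF prolyl hydroxylases (a HIF-PHI), the enzymes that mark hypoxia inducible factors for degradation, and the study asked how MSCs and osteocytes respond to such mimicked hypoxia. For each region the deposited list gave 1 value for all samples together, taken to be its mean log2 CPM, that is, Tn5 cuts normalised for the size of each library and put on a log2 scale. Values of single samples were not part of it. Depth and replicate spread were therefore unknown, and the effects of FG-4592 and of differentiation at these genes were not analysed here. Every value below is a description of the pooled list without a test.

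IL-6 family cytokines signal through receptor complexes that contain gp130, the product of Il6st. Ligand binding activates JAK kinases, which phosphorylate STAT3, and STAT3 induces Socs3, whose product binds gp130 and JAK and shuts the signal off. In bone, cells of the osteoblast lineage make IL-6, IL-11 and LIF, and gp130 signalling in osteoblasts and osteocytes influences both formation and the support of osteoclasts. Promoters of cytokine genes of this kind are known targets of NF-kB, AP-1 and C/EBP factors.

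Regions at the 8 genes had a median level of 2.80 log2 CPM, against 2.12 over the whole list. Because a wider region collects more cuts, regions were compared by the level per kb, the level minus the log2 of the width in kb. On that scale the median was 3.66 at the 8 genes and 3.25 over the list, and 69 of the 106 regions lay above the list median. A large part of the difference came from the Socs3 window, without which the median level per kb of the other 88 regions was 3.37. The regions were 200 to 1666 bp wide, with a median width of 545 bp against 460 bp over the list. By position, 51 lay upstream of the genes, 35 overlapped a gene body and 20 lay past a gene end.

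Promoter regions of any gene made up 22.6% of the regions, the same share as in the list (22.7%). Of these 24 regions, 12 lay at starts of the 8 genes and 12 only at starts of neighbours. The remaining 82 regions were distal, with a median level per kb of 3.40 against 3.15 for distal regions of the list. For 61 of the 106 regions the nearest transcript start belonged to another gene, so a region in a window was not thereby shown to act on the gene the window was named for. Regions with few cuts had been dropped before deposit, so an interval that is not listed need not be closed.

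**Figure D1:**
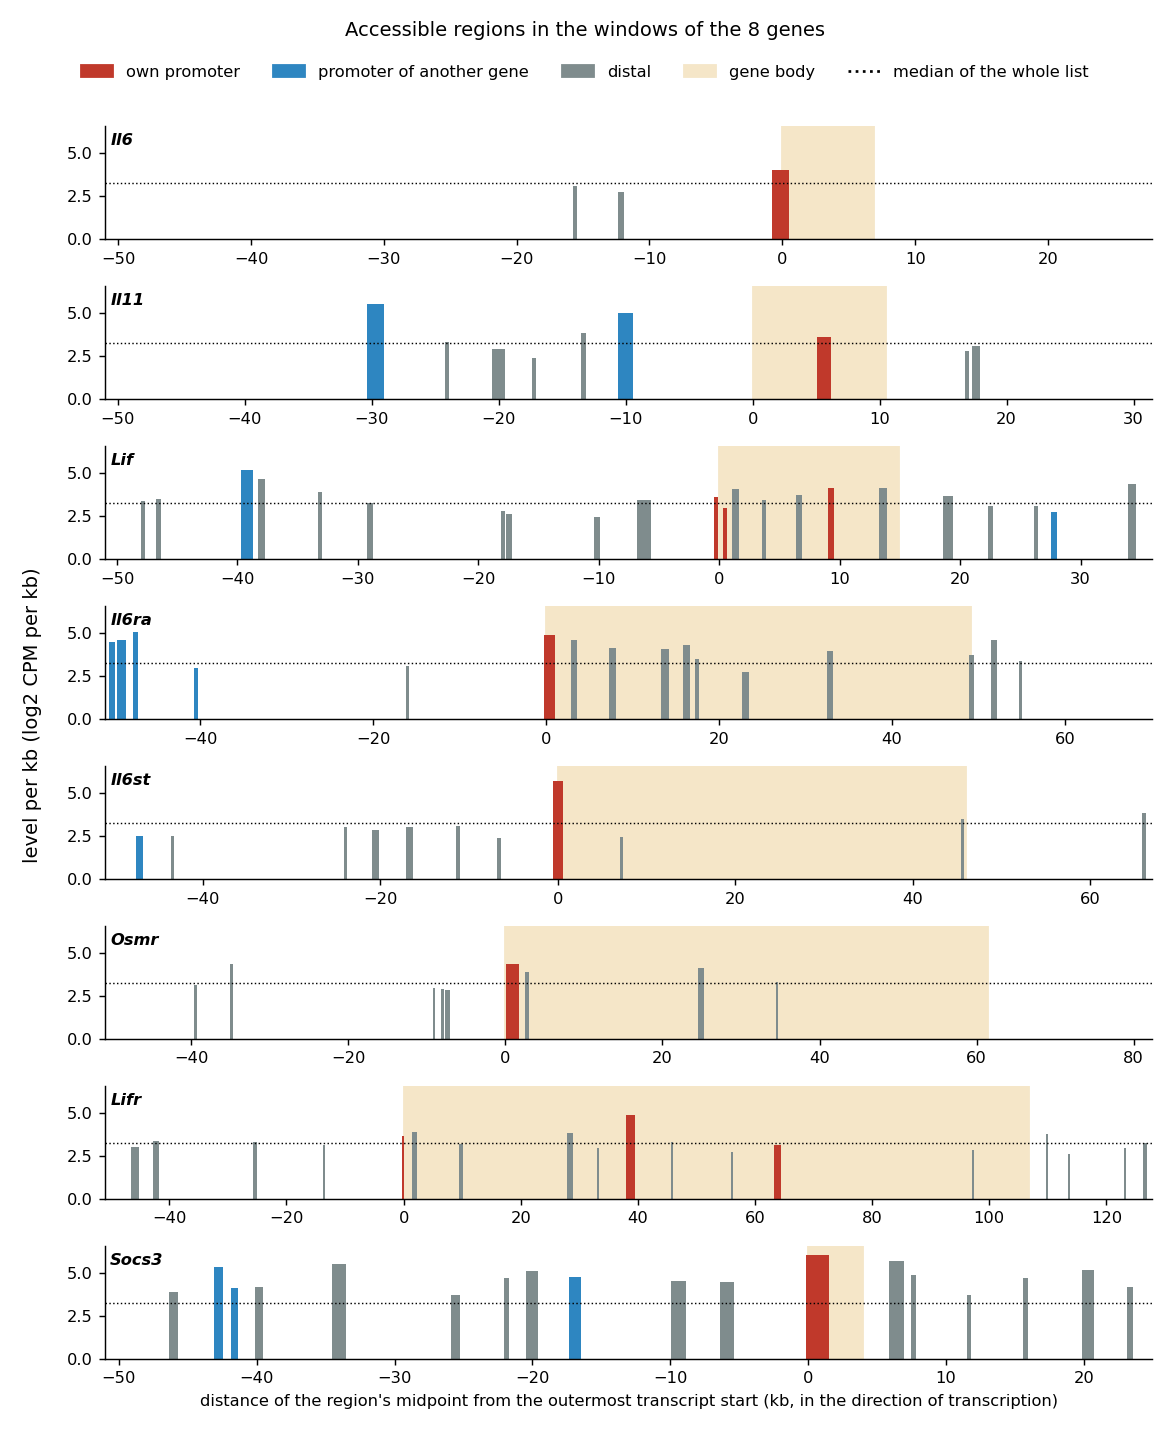
Regions in the windows of the 8 genes, by the distance of their midpoints from the outermost transcript start (x axis, kb, in the direction of transcription) and their level per kb (y axis, log2 CPM per kb). Bars are regions (narrow ones are widened to remain visible), coloured as own promoter, promoter of another gene or distal, the shaded span is the gene body and the dotted line is the list median of 3.25. Il6 had 3 regions, whereas Lif had 22, and all 18 Socs3 regions rose above the dotted line.

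Among the ligands, Il6, which encodes IL-6 itself (chr5:30013114-30019981, plus strand), had the fewest regions. Its only promoter region, chr5:30012369-30013627, had a level of 4.35 log2 CPM and a level per kb of 4.02. This region covered all 4 annotated transcript starts of Il6 and reached from 745 bp before the outermost start into the gene. Of all regions, 78.4% had a lower level per kb. Among promoter regions of the list within 10% of its width, 15.6% had a lower level. Such ranks by level, among regions of like width and of the same class (promoter or distal), are also given below. The 250 bases before the start are shown because the best known control elements of Il6 lie in them. Capitals mark, in order, an AP-1 site, a C/EBP site and an NF-kB consensus.
Il6, chr5:30012864-30013113, plus strand: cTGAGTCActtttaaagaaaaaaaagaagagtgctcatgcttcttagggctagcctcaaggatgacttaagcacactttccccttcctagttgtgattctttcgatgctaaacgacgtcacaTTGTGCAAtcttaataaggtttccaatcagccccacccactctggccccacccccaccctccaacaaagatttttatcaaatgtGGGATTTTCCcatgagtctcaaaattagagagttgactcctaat

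The AP-1 site TGAGTCA began 249 bp, the C/EBP site TTGTGCAA 128 bp and the NF-kB consensus 44 bp before the Il6 start, and all 3 lay within the accessible region. Il6 was the only one of the 8 genes whose RefSeq promoter held all 3 motifs. The share of all 32851 RefSeq promoters (250 bases before to 50 after a start) with an AP-1 site was 5.20%, with a C/EBP site 10.8% and with the NF-kB consensus 4.51%. The other Il6 regions had levels per kb below the list median. The region chr5:30000755-30001220, centred 12126 bp upstream, had a level per kb of 2.72, and chr5:29997373-29997642, centred 15606 bp upstream, had 3.10. Among distal regions of like width, 16.5% and 59.0% ranked lower. Both lay in the noncoding gene A230098N10Rik. No region was listed inside Il6 beyond the promoter region, nor within 20 kb past its end. The former of these upstream regions held a pair of STAT palindromes, described with the other STAT motifs further on.

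Il11 encodes IL-11, a cytokine of bone and stroma that signals through gp130. It had 9 regions in its window (gene at chr7:4772373-4782859, minus strand), yet only 1 of them, chr7:4776663-4777791, overlapped the gene. This region had a level of 3.82 log2 CPM and a level per kb of 3.65, and was intronic. Its edge lay 350 bp downstream of the start at 4778141, while the starts at 4782857 and 4782859 lay 5066 and 5068 bp from it. None of the 3 starts of Il11 was thus covered by a region. The 250 bases before the start at 4778141 are shown for comparison with Il6, with the single AP-1 site in capitals.
Il11, chr7:4778142-4778391, minus strand: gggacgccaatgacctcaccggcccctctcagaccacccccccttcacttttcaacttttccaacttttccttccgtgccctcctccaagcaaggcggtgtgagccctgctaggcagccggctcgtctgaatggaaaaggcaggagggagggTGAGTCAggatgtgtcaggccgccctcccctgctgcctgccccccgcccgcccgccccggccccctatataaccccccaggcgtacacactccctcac

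The AP-1 site TGAGTCA began 98 bp before the Il11 start, outside every listed region, as did the whole of this promoter. The highest levels in the Il11 window were those of housekeeping neighbours. The promoter region of Ube2s, which encodes a ubiquitin-conjugating enzyme, had a level per kb of 5.57, and that of Rpl28, which encodes a ribosomal protein, had 5.01. The 6 distal regions of the window ranged from 2.39 to 3.88 per kb.

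Lif encodes leukemia inhibitory factor, which binds a complex of LIFR and gp130 (gene at chr11:4257557-4272514, plus strand). It had 22 regions, the most of the 8 genes, but for 14 of them the nearest transcript start was that of another gene. Of 2360 protein-coding genes within 20% of its length, 1 had as many. Those genes were not matched for chromosome. Chromosome 11, which holds Lif and Socs3, had 58.5 regions per Mb, against 24.8 to 39.4 on the chromosomes of the other genes of the set. The 22 regions had a median width of 496.5 bp, and 5 of the gaps between neighbours were at most 1000 bp. No listed region covered the outermost start. The region chr11:4257102-4257478 (3.60 per kb) ended 79 bp before the start, and the next, chr11:4257901-4258100 (2.99 per kb), lay in an intron. The third promoter region, chr11:4266557-4267104, covered the internal starts at 4266796 and 4267095 and had the highest level per kb of the gene's own promoter regions, 4.18. The 250 bases before the RefSeq start of Lif follow, with the AP-1 site in capitals.
Lif, chr11:4257318-4257567, plus strand: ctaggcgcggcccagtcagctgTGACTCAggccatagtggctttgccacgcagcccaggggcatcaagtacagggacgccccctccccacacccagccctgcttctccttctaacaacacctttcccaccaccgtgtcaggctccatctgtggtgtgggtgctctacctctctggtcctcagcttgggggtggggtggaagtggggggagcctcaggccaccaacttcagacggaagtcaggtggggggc

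Regions covered 161 bases of the RefSeq promoter window of Lif, and the AP-1 site TGACTCA, which began 228 bp before the RefSeq start, was among them. A further AP-1 site of the same region lay 325 bp before the annotated start. Inside the gene, 6 regions ranged from 2.99 to 4.18 per kb, and 5 of them lay above the list median. The distal region chr11:4291505-4292148, past the gene end, reached 4.36 per kb. The highest values of the window belonged to the promoter region of Castor1 (5.18 per kb), a sensor of arginine for mTORC1, and to a distal region beside it (4.67 per kb). The neighbouring Osm, which encodes oncostatin M, another ligand of the family, overlapped 2 regions of the Lif window at 2.81 and 2.61 per kb and had no promoter region.

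Il6ra encodes the IL-6 binding receptor chain (gene at chr3:89864059-89913196, minus strand). It had 16 regions, and 91.4% of genes of similar length had fewer. The promoter region chr3:89912189-89913476 had a level of 5.26 log2 CPM and a level per kb of 4.90, covered both starts of Il6ra and overlapped the antisense gene Gm42809, which ATACseq cannot separate from it. For all 16 regions of the window, the promoter region included, the nearest transcript start was that of Gm42809 or of another gene. The gene body of Il6ra was accessible at many places. It overlapped 8 distal regions with a median level per kb of 4.03, and 7 of them lay above the list median. They ranged from 2.74 at chr3:89889757-89890470 to 4.59 at chr3:89909648-89910283, an intronic region centred 3230 bp after the start. Another region just past the gene end, chr3:89860978-89861709, also stood at 4.59 and held a pair of AP-1 sites. Upstream, 4 of the 5 regions were promoter regions of Atp8b2, which encodes a phospholipid flippase, and 1 of them was the highest of the window at 5.11 per kb.

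Il6st encodes gp130, the signalling chain that the family shares (gene at chr13:112464070-112510086, plus strand). Its promoter region chr13:112463544-112464671 was strong, with a level of 5.90 log2 CPM and a level per kb of 5.72. The level per kb exceeded those of 98.1% of all regions and of 87.0% of the best promoter regions of protein-coding genes, and 86.9% of promoter regions of like width ranked lower. The other 10 regions of the window were low, from 2.41 to 3.83 per kb, and only 2 of them lay above the list median. The Il6st promoter thus lay above the rest of its window. The same held at Lifr (4.89 per kb against a distal maximum of 3.92), Il6 (4.02 against 3.10) and Socs3 (6.05 against 5.69). In the windows of Il11, Lif, Il6ra and Osmr, a region other than the gene's own promoter regions was the highest. The starts at 112467593, 112472599, 112475008 and 112475046 were not within 1000 bp of any region. The 250 bases before the outermost start are printed with every CpG in capitals, since this promoter was rich in CpG where that of Il6 was not.
Il6st, chr13:112463820-112464069, plus strand: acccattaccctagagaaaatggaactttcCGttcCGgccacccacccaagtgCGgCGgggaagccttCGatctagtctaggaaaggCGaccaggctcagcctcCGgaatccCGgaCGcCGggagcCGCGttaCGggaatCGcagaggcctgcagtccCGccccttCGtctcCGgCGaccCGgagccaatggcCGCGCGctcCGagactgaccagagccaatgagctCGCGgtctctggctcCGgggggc

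These 250 bases of Il6st held 26 CpGs, against 3 in the 250 bases of Il6, 6 in those of Lif and 12 in those of Il11. Such richness was not particular to Il6st. The 250 bases before the main Lifr start held 43 CpGs, those of Socs3 26, and those of Il6ra and Osmr 18 each. The accessible region held 2 NF-kB consensus matches, 386 bp before the outermost start and 316 bp after it, and no AP-1, C/EBP or STAT motif.

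Osmr encodes the oncostatin M receptor chain (gene at chr15:6813577-6874969, minus strand). It had 9 regions against a median of 8 for genes of similar length, and none lay at the promoter of another gene. The promoter region chr15:6873242-6874907 was the widest of all 106 regions (1666 bp) and had a level of 5.09 log2 CPM and a level per kb of 4.35. It ended 62 bp short of the outermost start but covered 3 other starts. It held 7 hypoxia response element (HRE) cores, as did the Castor1 promoter region in the Lif window, and no region of the 8 windows held more. A distal region 34894 bp upstream, chr15:6909672-6910054, matched the promoter only on the per kb scale, at 4.36, with a level of 2.97 log2 CPM. Of distal regions of like width, 96.6% ranked lower than this distal region, which held an NF-kB consensus. Of promoter regions of like width, 21.5% ranked lower than the Osmr promoter region. The 3 regions between 7412 and 9084 bp upstream were low, from 2.87 to 2.95 per kb.

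Lifr encodes the LIF receptor chain and is the longest of the genes (chr15:7090614-7197489, plus strand). Its 18 regions included 3 of its own promoter regions, which differed from each other. The main one, chr15:7128672-7130099, covered 3 clustered starts and had a level of 5.41 log2 CPM and a level per kb of 4.89. The region at the outermost start, chr15:7090301-7090743, had 3.68 per kb, and that at the start 7154353, chr15:7153913-7155036, had 3.17 per kb, a value that 45.1% of all regions fell below, while 4.33% of promoter regions of like width ranked lower. The starts at 7140542 and 7140549 lay 4002 and 4009 bp from the nearest region. The 15 distal regions of Lifr ranged from 2.63 to 3.92 per kb with a median of 3.19, close to that of distal regions over the list.

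Socs3 encodes the feedback inhibitor of gp130 signalling (gene at chr11:117966079-117970047, minus strand). It is the shortest of the genes and stood apart from the rest. Its promoter region chr11:117968572-117970204 had a level of 6.76 log2 CPM and a level per kb of 6.05, the highest of the 106 regions on either scale. Of all regions in the list, 99.2% had a lower level per kb, and of promoter regions of like width, 93.2% ranked lower. Of genes of similar length, 99.6% had fewer than the 18 regions of Socs3, and 99.7% had a smaller part of their window covered, which was 17.8% at Socs3 against a median of 4.04%. Those genes were not matched for chromosome, and for 10 of the 18 regions the nearest transcript start was that of another gene. All 18 regions exceeded the list median per kb and 16 exceeded its upper quartile of 3.87.

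The 14 distal regions at Socs3 had a median level per kb of 4.61 and ranged from 3.72 to 5.69. The 68 distal regions of the other 7 genes had a median of 3.29 and ranged from 2.39 to 4.67, so that the ranges overlapped. The strongest distal region, chr11:117963109-117964166, lay past the gene end, 5548 bp downstream of the nearest Socs3 start, with a level of 5.77 log2 CPM and a level per kb of 5.69. It held an AP-1 site, a C/EBP site and 5 HRE cores. Next came chr11:118003575-118004601, 34041 bp upstream and within Pgs1, with 5.53 per kb. The other regions past the gene end stood at 5.19, 4.90, 4.71, 4.22 and 3.72 per kb. Of the 11 upstream regions, 3 were promoter regions of Pgs1, which encodes an enzyme of cardiolipin synthesis, at 4.77, 5.35 and 4.12 per kb. The upstream region chr11:117975446-117976435, whose nearest transcript start was that of Socs3, had 4.46 per kb.

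**Figure D2:**
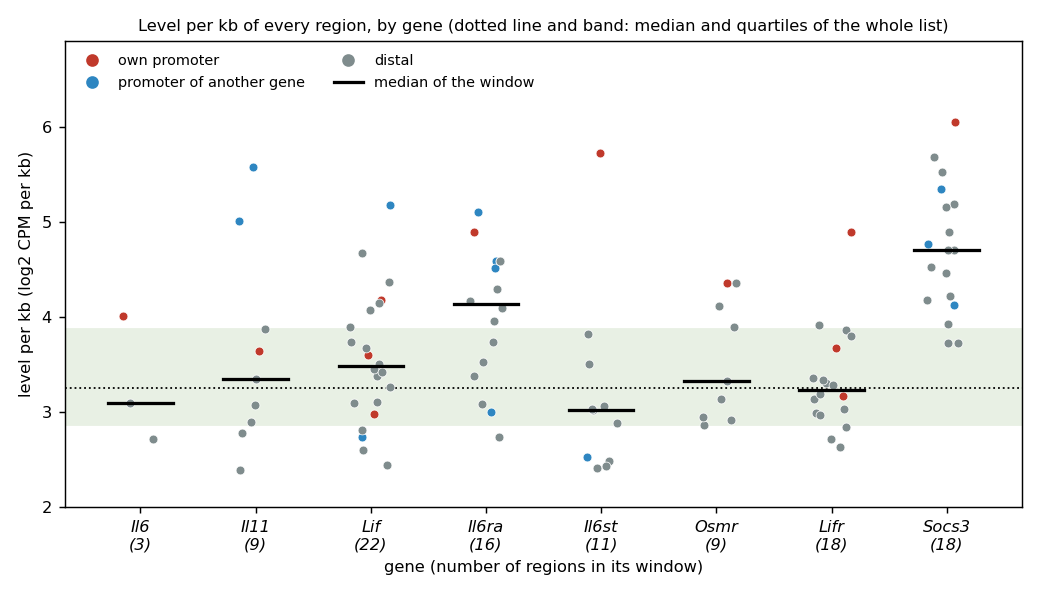
Level per kb of every region (y axis, log2 CPM per kb) by gene (x axis, with the number of regions in parentheses). Points are regions coloured by class, horizontal bars are window medians, and the dotted line and band give the median and quartiles of the whole list (3.25, 2.87 and 3.87). The Socs3 points all lie above the dotted line, and the Il6st promoter lies above the other regions of its window.

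Ordered by the median level per kb of the window, Socs3 (4.71) and Il6ra (4.13) came first, followed by Lif (3.48), Il11 (3.35), Osmr (3.33), Lifr (3.24), Il6 (3.10) and Il6st (3.03). From Lif downwards the medians lay within the quartiles of the list and the spreads of the windows overlapped throughout. By the highest promoter region per kb the order was different. Socs3 (6.05) and Il6st (5.72) led, Il6ra (4.90) and Lifr (4.89) were level, and Osmr (4.35), Lif (4.18), Il6 (4.02) and Il11 (3.65) followed. The median over the 14064 protein-coding genes with a promoter region was 4.76, so that the 3 ligand genes and Osmr were below it and the other 4 genes above. Without a replicate spread, neighbours in either order could not be told apart. Ranked by level among promoter regions of like width, the same Socs3 (percentile 93.2) and Il6st (86.9) regions led, but that of Lif (82.2) followed. Those of Il6ra (50.0), Lifr (47.3), Osmr (21.5), Il6 (15.6) and Il11 (11.1) came after. Lif thus had the most regions, and its highest promoter region was below that median per kb yet high for its width. Il6st had a strong promoter among regions of low level.

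The 12 own promoter regions had a median level per kb of 4.10, against 4.10 for all promoter regions in the list. The 6 whose observed to expected CpG ratio exceeded 0.5, at Osmr, Il6ra, Socs3, Il6st, the internal starts of Lif and the main start of Lifr, ranged from 4.18 to 6.05 per kb. The 6 with a lower ratio, at Il6, Il11, the outermost start of Lif and the other starts of Lifr, ranged from 2.99 to 4.02 per kb. These ranges of level per kb did not overlap. The CpG-richer regions were wider, with a median width of 1358 bp against 783.5 bp. Ranked among promoter regions of like width, both sets overlapped widely, at percentiles 21.5 to 93.2 and 4.33 to 76.4. The regions are few and share genes, and the ratio of 0.5 was chosen after the values were seen.

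**Figure D3:**
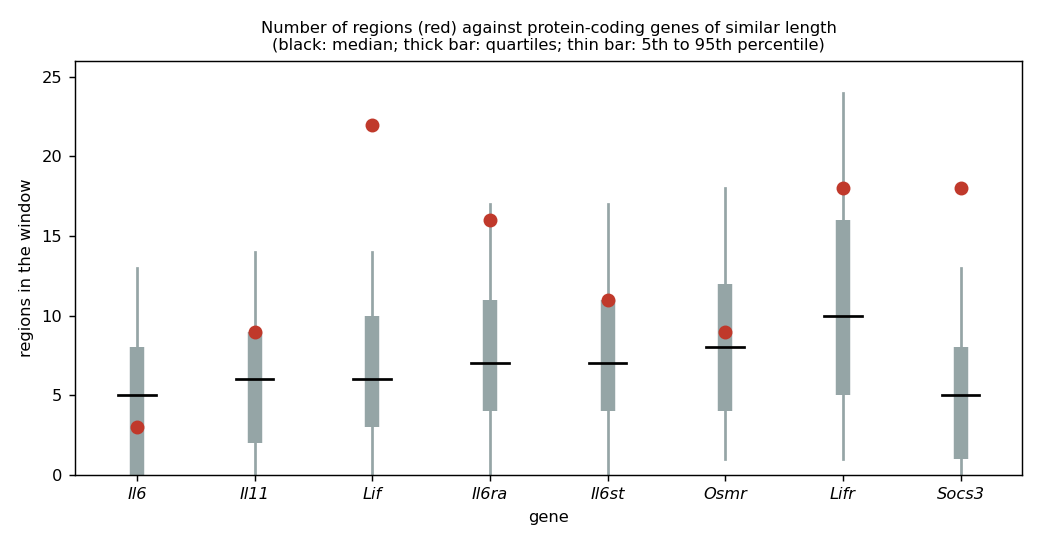
Number of regions in the window of each gene (red points) against protein-coding genes within 20% of its length (black line for the median, thick bar for the quartiles, thin bar for the 5th to 95th percentile). Lif (22 regions) and Socs3 (18 regions) lie above the thin bars, and Il6 (3 regions) lies below the median of 5.

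The median protein-coding gene of similar length had 5 regions for Il6 and Socs3, 6 for Il11 and Lif, 7 for Il6ra and Il6st, 8 for Osmr and 10 for Lifr. Il6 was the only member below its median, at 3 regions, with 37.3% of genes of similar length having fewer. The Il11, Il6st, Osmr and Lifr counts of 9, 11, 9 and 18 exceeded those of 69.4%, 72.7%, 54.1% and 82.6% of such genes. A promoter region was found for 64.1% of all 21938 protein-coding genes and for 8 of the 8 genes here.

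Sequence motifs were then counted in the regions on both strands. The motif of STAT factors, the palindrome TTCCNGGAA, is the one the pathway itself ends on. It was found in 8 of the 106 regions (7.55%) and in 2.43% of the list, or a mean of 2.63% among regions within 10% of the width of each member region. The share was 4.55% without the Socs3 window and 4.44% over the regions whose nearest transcript start belonged to the gene itself. The 8 regions belonged to 4 genes: 4 to Socs3, 2 to Lif, 1 to Il6 and 1 to Lifr. Il11, Il6ra, Il6st and Osmr regions held none, which says only that these letters were not in these intervals. The 9 sites are shown 5′ to 3′ on the strand of the gene with 10 bases on either side, because STAT factors are the last step of the pathway these genes encode. A match is a description of the letters and not evidence of binding. Capitals mark the palindrome, and the coordinates are those of the 9 bases.
Il6, chr5:30000986-30000994: accttcactaTTCCTGGAAatctgcacag
Il6, chr5:30001007-30001015: ctgcacaggcTTCCTGGAAgattgaggca
Lif, chr11:4228349-4228357: tcagttacttTTCCTGGAAagtgttgcaa
Lif, chr11:4279941-4279949: gaggtccagcTTCCTGGAAgcatagaagg
Lifr, chr15:7048524-7048532: cagagaagaaTTCCAGGAAgggaagagaa
Socs3, chr11:117969239-117969247: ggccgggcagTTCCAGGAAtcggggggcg
Socs3, chr11:117990368-117990376: ccaccctactTTCCTGGAActgtctgctc
Socs3, chr11:117995483-117995491: tccatgaggaTTCCAGGAAgatgatctca
Socs3, chr11:118011669-118011677: atatcctcaaTTCCAGGAAttaatggctt

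The Socs3 promoter site lay 57 bp before the start at 117969186, in the strongest region of the set. It read TTCCAGGAA, as did 4 of the 9 sites, and the other 5 read TTCCTGGAA. No other own promoter region of the 8 genes held the palindrome. The remaining Socs3 sites lay 20325, 25440 and 41626 bp upstream, in regions of 5.16, 3.73 and 4.12 per kb that all overlapped Pgs1. The first of these regions also held 2 AP-1 sites. At Il6, the 2 sites had the same core and lay 21 bp apart in the region 12126 bp upstream, close to its centre. This was the only region of the set with more than 1 palindrome. The Lif sites lay 29204 bp upstream and 22388 bp downstream of its outermost start, in regions of 3.26 and 3.09 per kb. The Lifr site lay 42086 bp upstream in a region of 3.36 per kb. Regions with a palindrome therefore ranged widely in level, from 2.72 to 6.05 per kb.

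**Figure D4:**
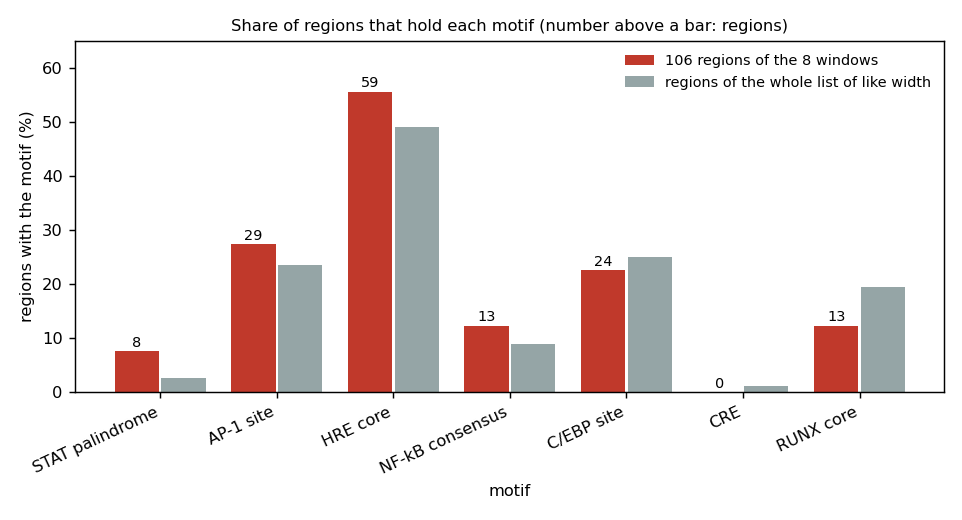
Share of regions with each motif (y axis, %) among the 106 regions of the 8 windows (red, with the number of regions above the bar) and the mean share among regions of the whole list within 10% of the same widths (grey). The STAT palindrome was in 7.55% against 2.63%, and the RUNX core in 12.3% against 19.5%.

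AP-1 sites (TGACTCA or TGAGTCA) were present in 29 regions (27.4%, against 23.5% for regions of like width) and in all 8 windows. Of the 35 sites, 20 read TGAGTCA and 15 TGACTCA. Of the 12 own promoter regions 3 held one (25.0%), at Il6, Lif and Il6ra, against a mean of 24.9% among regions of like width. The NF-kB consensus was present in 13 regions (12.3% against 8.86%) of 7 genes, Il11 being the exception, and the C/EBP site TTGCNNAA in 24 regions (22.6% against 25.1%). Among distal regions alone, not matched for width, the C/EBP share was the higher one, at 26.8% against 22.9% in the list. The RUNX core TGTGGTT, bound by the osteoblast factor RUNX2 among others, was in 13 regions (12.3% against 19.5%), 6 of them at Lifr, and its share without the Lifr window was 7.95%. The cyclic AMP response element TGACGTCA was in none, against 1.14%. These shares rest on few regions, no test was applied, and 20 regions held none of the 7 motifs.

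The HRE core, ACGTG or GCGTG, is bound by the factors that FG-4592 stabilises. It was present in 59 of the 106 regions (55.7%), against 49.1% of regions of like width. Among distal regions alone, not matched for width, the share was 51.2% against 38.6% in the list. Of the 12 own promoter regions 9 held it, against a mean of 69.3% among regions of their widths. The core is short and contains CpG. Among the own promoter regions, the largest numbers were 7 at Osmr and 6 each at Il6ra and at the main Lifr start. The Il6ra RefSeq promoter held the palindromic form CACGTG 24 bp before its start. Among regions at least 500 bp wide the share was 64.9%, below the 66.3% of such regions in the list. The core was in 43.8% of all RefSeq promoters. Whether FG-4592 altered any of these regions could not be read from the list.

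Other genes of the pathway were examined by their promoter regions. Of 31 such genes, 24 had one, against 64.1% of all protein-coding genes. The 7 without were 6 of the 9 other cytokine genes (Osm, Cntf, Ctf1, Ctf2, Ebi3 and Il31) and Il31ra, a receptor of IL-31. By contrast, all 7 kinase and STAT genes, all 4 adaptor genes and all 7 inhibitor genes had a promoter region. Their medians per kb were 5.17, 5.47 and 5.24, against 3.72 for the 3 cytokine genes with a region and 3.58 for the 3 receptor genes. The ranges overlapped. The cytokine genes ranged from 3.03 to 4.90 (Clcf1) and the receptor genes from 3.23 to 5.70 (Il11ra1, the IL-11 receptor chain), while the kinase and STAT genes ranged from 4.33 to 5.89, the adaptor genes from 4.42 to 6.15 and the inhibitor genes from 4.42 to 6.49. The highest values were those of Socs1 (6.49), which encodes an inhibitor of JAK kinases related to Socs3, and of Shc1 (6.15), an adaptor. The lowest were those of Il27 (3.03), which encodes a subunit of IL-27, and Cntfr (3.23), which encodes the receptor chain for ciliary neurotrophic factor.

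**Figure D5:**
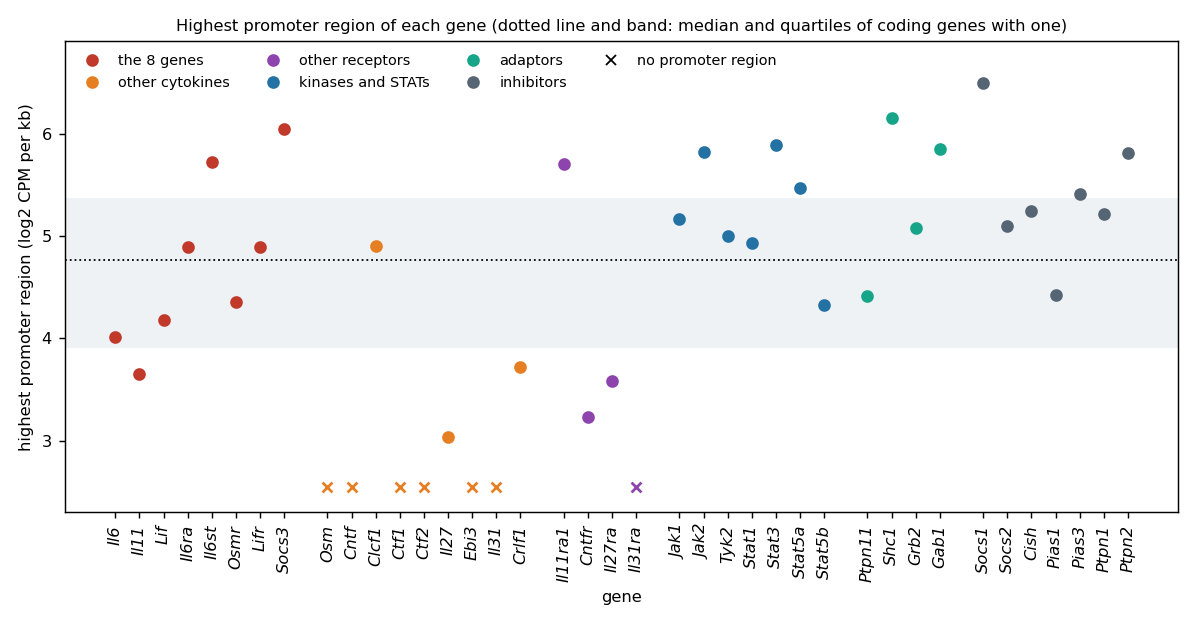
Highest promoter region of each gene (y axis, log2 CPM per kb) for the 8 genes and 31 other genes of the pathway by group (x axis). Crosses mark genes without a promoter region, and the dotted line and band give the median and quartiles of protein-coding genes with one (4.76, 3.91 and 5.36). Kinase, STAT, adaptor and inhibitor genes all have a point, whereas 6 of 9 other cytokine genes are crosses.

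The label of the cells was compared with marker genes in the same way. Promoter regions were found for 5 of 6 mesenchymal and 6 of 6 osteoblast markers, and for 2 of 6 osteocyte markers (Dmp1 and Fgf23). They were also found for 2 of 5 immune, 2 of 3 endothelial and 0 of 3 epithelial markers. Over all protein-coding genes the share was 64.1%. The osteocyte, immune and epithelial markers were below it and the other groups above it. In the pooled list these markers therefore did not bear out the osteocyte label. Those of the immune and endothelial markers had 3.18 to 3.32 and 2.41 to 3.05 per kb. The mesenchymal ones ranged from 3.58 to 5.43, the osteoblast ones from 3.20 to 5.26 and the osteocyte ones from 3.45 to 3.93 per kb. The lowest osteoblast marker, Ibsp (3.20), lay within the immune range. The pooled list did not separate MSCs from osteocytes, so the accessibility of the 8 genes in either cell type alone was not available from it.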

How the data were processed

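ATACseq data of 11 MPC2 samples were used. Per the study's methods, the authors trimmed reads with Trim Galore, aligned them to mm10 with Bowtie2, removed duplicates with Picard (version 2.17.8), called peaks with MACS2 (version 2.2.7.1), merged them over samples, removed blacklisted regions, counted cuts with pyDNase, dropped regions with few cuts, and applied TMM and edgeR (version 3.24.3). 1 library was removed by the authors for quality. A Tn5 shift was not stated. Merging widens regions, and a region could enter the list through 1 group of samples.

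The deposited value was read as average log2 CPM, which was inferred: it was negative in 460 regions, and its antilog (base 2) totalled 1012761. The list gave no value per sample, so the planned comparisons between groups were not run. Coordinates are mm10, 1-based. Genes came from GENCODE vM21 and promoter sequences from RefSeq (GRCm38.p6, the same assembly), in which all 8 genes matched 10 promoters. The 8 genes, the pathway and marker lists and the rule for named genes (each gene's promoter regions and its highest and lowest regions, any region of the 8 windows, pathway genes without a promoter region or with the 2 highest and 2 lowest promoter levels, and neighbours with promoter regions in a window) were chosen with earlier results of these data known. Clcf1, Il11ra1, Ibsp, Dmp1, Fgf23 and A230098N10Rik fall outside that rule and were named after their values were seen. Counting and motif search were tested on simulated data. Python 3.11.15, numpy 2.4.6, pandas 2.3.3 and scipy 1.17.1 were used. The alternatives tried concerned the window, region width, promoter distance and motifs.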

Additional observations from a re-analysis of the deposited data

How the results depend on the processing

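No paired analysis was possible because values of single samples were not part of the list. For the same reason, the planned group comparisons and the alternatives that leave out replicates were not run. With only regions at least 500 bp wide, 57 regions and 38 distal regions remained, the median level was 3.80 log2 CPM and the median level per kb 4.11, and AP-1 sites were in 36.8% (28.1% of such regions in the list) and HRE cores in 64.9% (66.3%), so that the HRE share turned from above to below that of the list. Over the list such regions had a median level per kb of 3.75. With only regions whose nearest transcript start belonged to the gene itself, 45 regions and 34 distal regions remained, none of them at Il6ra and 1 at Il11. The looser STAT motif TTCNNNGAA was in 22.6% of regions (16.6% of the list) and the looser AP-1 motif TGANTCA in 38.7% (28.1%), while HRE cores followed by C were in 28.3% (18.6%). In the central 200 bp of regions, the STAT palindrome was in 1.89% (0.941% of the list), AP-1 sites in 14.2% (12.1%) and HRE cores in 30.2% (24.2%). The other 43 planned recomputations stayed within 1.5 times the count or within the 95% interval of the share or median. So did 88 added after the data were seen that left out the window of 1 gene in turn. Those 88 could not show robustness. The largest window held 22 of the 106 regions, so leaving out 1 window could not fail the count rule. Each share or median was set against an interval that treats regions as independent and was drawn from the same regions. Within that 95% interval lay a share with a STAT palindrome of 4.55% without the Socs3 window and 4.44% with only regions nearest the gene's own starts. A share with a RUNX core of 7.95% without the Lifr window also lay within its interval.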
